A study of Mus musculus with 2 samples.

Results

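Gata6 shares its promoter with an RNA transcribed from the opposite strand, and 904 unnamed transcripts of the same expression table sit at a named gene in that way. They were chosen by name and position alone, among 26127 rows. A row counted as unnamed when its name ended in Rik or began with Gm or BC and a digit, which held for 7184 rows. It was kept when a named gene lay on the opposite strand of its chromosome with a start site within 2000 bp, the minus-strand start lying no more than 500 bp to the right of the plus-strand start. The rule gave 907 pairs. For 3 transcripts with several such genes the nearest was used, so the 904 transcripts had 898 different partners, 6 of which served 2 transcripts each.

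The RNA came from extraembryonic endoderm stem (XEN) cells, a culture model of the primitive endoderm, which later lines the yolk sac. The female PS10 line, of strain ICR, received either a control locked nucleic acid (LNA) or an LNA against Gata6-AS, the antisense RNA of Gata6, and total RNA was sequenced. Each condition has 1 library, of 1 cell line, so no difference between them has a replicate check and none was tested. All values compare these 2 libraries, not the treatments in general, and fewer cells of a kind cannot be told apart from less RNA per cell. The sample titles call both reagents siRNA, but the protocol in the labels describes them as locked nucleic acids. Below, "depleted" names the library titled for Gata6AS. A level is in RPKM (reads per kilobase of transcript per 1000000 reads), and a difference is log2(RPKM + 1) in the depleted library minus that in the control, a scale that understates changes of low transcripts. A difference is counted only where the mean of both libraries reached 1 RPKM.

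Many mammalian promoters, above all those rich in CpG dinucleotides, start transcription in both directions. The sense product is usually spliced, polyadenylated and exported, whereas the divergent product often ends early and is removed in the nucleus by the RNA exosome. Where the divergent product does accumulate it may be a long noncoding RNA or the messenger RNA of another gene, in which case a pair of genes shares the promoter. The names with Rik, Gm and BC are provisional mouse symbols given to cDNA clones and gene models before a function was known. Later RefSeq and GENCODE entries matched all but 110 of the 904 by symbol or synonym. Of those matched, 587 are noncoding, 198 protein-coding, 8 pseudogenes and 1 of another kind, so the name alone does not mean a noncoding RNA.

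The DNA between the start sites of 4 pairs is shown because these pairs span the patterns described below: a noncoding member that was lower together with its partner (Gm10785 and Donson), an abundant coding member beside a nearly silent gene (1500003O03Rik, now Chp1, and Exd1), a member that kept its level while its partner was higher (1700088E04Rik and Polr2f), and a member that was higher while its partner was not (2310022A10Rik and Pld3). The sequences are from RefSeq's promoter windows on GRCm38.p6, not on mm9, the build of the expression table. The capitals are the stretch between both starts, and 20 bases of each transcript flank it in lower case. Each is written 5′ to 3′ on the strand of the named partner, so the unnamed transcript starts at the left and runs the other way.
Gm10785 and Donson, chr16:91688708-91688918, minus strand: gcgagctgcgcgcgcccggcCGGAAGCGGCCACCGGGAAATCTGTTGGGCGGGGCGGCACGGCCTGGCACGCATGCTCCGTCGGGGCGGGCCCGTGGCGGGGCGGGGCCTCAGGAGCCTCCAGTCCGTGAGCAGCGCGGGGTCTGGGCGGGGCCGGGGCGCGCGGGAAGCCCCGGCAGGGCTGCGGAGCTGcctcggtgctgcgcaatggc
1500003O03Rik and Exd1, chr2:119547607-119547727, minus strand: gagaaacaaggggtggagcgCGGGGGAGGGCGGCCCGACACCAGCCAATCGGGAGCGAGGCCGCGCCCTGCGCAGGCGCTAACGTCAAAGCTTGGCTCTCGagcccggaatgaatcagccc
1700088E04Rik and Polr2f, chr15:79141231-79141345, plus strand: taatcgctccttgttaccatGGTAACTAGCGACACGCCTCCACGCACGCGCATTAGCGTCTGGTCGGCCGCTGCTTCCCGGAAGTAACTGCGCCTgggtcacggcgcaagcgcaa
2310022A10Rik and Pld3, chr7:27553198-27553300, minus strand: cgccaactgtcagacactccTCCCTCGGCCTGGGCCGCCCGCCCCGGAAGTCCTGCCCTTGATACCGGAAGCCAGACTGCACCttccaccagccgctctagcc
The stretches in capitals hold 23, 11, 10 and 5 CpG dinucleotides in this order, and 79.5%, 72.8%, 64% and 71.4% of their bases are G or C. None of them holds the promoter element TATAAA on either strand. The letters GATAA, a longer form of the GATA core that proteins of the Gata6 family bind, are not in them either. The shorter core GATA does stand in the Pld3 stretch. GGGCGG, the core of a GC box, was found on either strand of all but the Polr2f stretch, and CCAAT only in that of Exd1. The start sites lie 170, 80, 74 and 62 bp apart in RefSeq and 146, 70, 100 and 77 bp apart in the expression table, so the annotations place them at slightly different bases.

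Over all pairs that could be looked up, the promoters had the same CpG-rich make-up. RefSeq windows of 300 bases, from 250 before to 50 after a start, were found for 508 of the 904 members and 729 of the 898 partners. The members matched 507 different windows, on which the values below rest. The median window held 24 CpG dinucleotides in the members and 23 in the partners, against 13 over all 17492 protein-coding and 4 over all 9533 lncRNA windows of the table. The windows of noncoding members alone had a median of 25. GGGCGG stood in 63.5% of members' and 66.0% of partners' windows, against 35.9% of all windows. TATAAA stood in 4.34% and 6.72%, against 14.2% of all windows, and GATAA in 12.8% and 14.1%, against 25.8%. CCAAT differed little, with 38.3% and 40.9% against 37.9%. Motifs were counted on both strands; a member's and its partner's window overlap, and a GC-rich window holds GGGCGG more often and GATAA less often by base composition alone.

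The pairs were mostly close. The distance from the minus-strand to the plus-strand start had a median of 98.5 bp, with quartiles of -82.25 and 229.25 bp, where a negative value means that both spans overlap at their 5′ ends. They overlapped in 266 pairs (29.4%). At the far limit, the pair A430093F15Rik and Cd5 lay 1973 bp apart and Gm16188 and Slc25a33 1975 bp apart, while Gm10608 and Acaa1b at 2068 bp and Gm13855 and Slc35b4 at 2121 bp fell outside. At the limit for overlapping starts, B230364G03Rik with Nmbr (-499 bp) and A830012C17Rik with Penk (-498 bp) were inside, and Gm9947 with Msc (-512 bp) and Gm11592 with Npepps (-510 bp) outside. All 4 members just inside were listed at 0 RPKM in both libraries. Of those outside, Gm10608 and Gm9947 were at 0, Gm13855 had 0.0130 RPKM in the control and 0.0219 in the depleted cells, and Gm11592 had 0.531 and 0.587.

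Most members had levels far below those of their partners. The median level over the 904 members was 0.114 RPKM, against 4.90 for their partners. 189 members were listed at 0 in both libraries, which at this depth allows up to 3 reads, or 0.0290 RPKM in the control and 0.0244 in the depleted cells for a transcript of 1 kb. A mean of 1 RPKM was reached by 246 members (27.2%) and by 649 of the 898 partners (72.3%). Both partners reached it in 224 pairs, only the named gene in 430, only the member in 22 and neither in 228. Among all 6280 unnamed rows with no divergent named gene, 17.1% reached 1 RPKM.

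**Figure D1:**
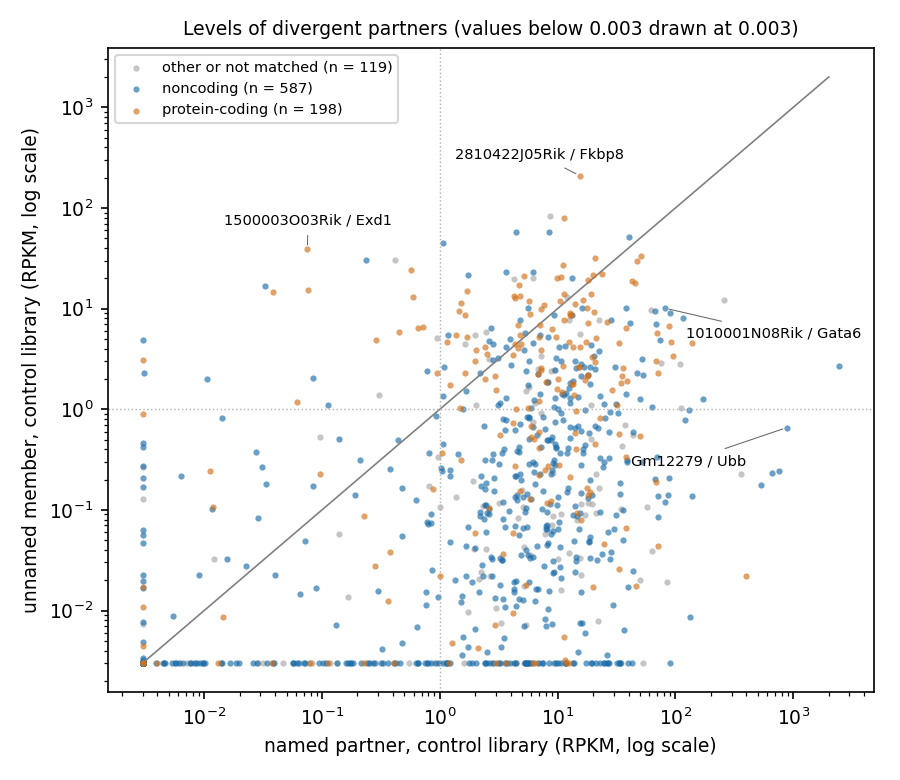
Level of each member (vertical axis) against that of its named partner (horizontal axis) in the control library, both in RPKM on log scales, for all 904 pairs; the diagonal marks equal levels and dotted lines mark 1 RPKM. Most points lie below the diagonal, at a median of 0.114 RPKM for members against 4.90 for partners over both libraries.

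The share that was expressed differed between classes of members. Of the 198 protein-coding members, 116 (58.6%) reached 1 RPKM, and of the 587 noncoding members 103 (17.5%). Where both partners reached it, a noncoding member stood at a median of 22.9% of its partner's level (95 pairs) and a protein-coding one at 66.5% (104 pairs), compared per length. Over all 224 pairs the median was 40.1%, and the member was the higher of both in 65 (29.0%).

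Members were more often expressed where the partner was. The share of members at 1 RPKM or more was 6.78% beside partners under 0.1 RPKM, 13.7% beside those from 0.1 to under 1, 28.9% from 1 to under 10, 40.6% from 10 to under 100, and 43.8% beside the 16 partners at 100 RPKM or more. Over the same bins the median member, expressed or not, had 0, 0.0113, 0.164, 0.436 and 0.842 RPKM. Some of the most active partners nevertheless had members at low levels. Tpt1, which encodes a translationally controlled protein found in most cells, had 2432 RPKM in the control and 2166 in the depleted cells, and Gm4285, whose start lies 129 bp away, had 2.72 and 3.17. Ubb, a polyubiquitin gene, had 881 and 791 RPKM, and Gm12279 at 130 bp had 0.657 and 0.415. Actg1, which encodes cytoplasmic gamma-actin, had 662 and 705, and 0610009L18Rik at 136 bp had 0.234 and 0.197. These genes were chosen for their level, after it was seen.

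The opposite case, an expressed member beside a gene at under 1 RPKM, was found in 22 pairs. 1500003O03Rik, whose promoter is shown above and which is now Chp1, a calcineurin-like calcium-binding protein, had 39.1 RPKM in the control and 40.0 in the depleted cells, and Exd1, a factor of the germline piRNA pathway, 0.0751 and 0.0794. 4933436C20Rik, now the lncRNA Crnde, had 1.09 and 1.43 RPKM beside the homeobox gene Irx5 at 0.113 and 0.105. 2810468N07Rik, now the lncRNA Cerox1, had 2.30 and 3.36 RPKM, while the neighbouring transcription factor gene Sox8 had 0.00306 and 0.0391.

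The 8 members with the highest levels were a mixed group. 2810422J05Rik, now Kxd1, a subunit of a complex that positions lysosomes, had 209.8 RPKM in the control and 217 in the depleted cells, against 15.4 and 16.9 for its partner Fkbp8, a mitochondrial immunophilin. Gm5069, a transcribed pseudogene, had 82.7 and 93.0 RPKM beside the inositol trisphosphate kinase gene Itpkb at 8.64 and 5.01; reads of a pseudogene can come from its parent gene. 1810027O10Rik (Tmem256) had 78.8 and 65.7 RPKM and Nlgn2, a synaptic adhesion gene, 11.4 and 10.3. Gm20427 had 57.8 and 63.9, and its span covers Slc39a7, a zinc transporter gene on the same strand at 80.5 and 88.7. Gm12841 had 57.3 and 49.5, and its span overlaps Atp6v0b, a proton pump subunit gene on the other strand at 89.1 and 76.5. Gm15491 had 51.4 and 37.2 RPKM, and 1500012F01Rik, the snoRNA host Zfas1, 45.0 and 41.2 against 1.07 and 1.11 for the helicase gene Znfx1. Of the 8, to which Chp1 (above) belongs, only Tmem256, Zfas1, Chp1 and Gm5069 were free of another overlapping row besides the partner.

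**Figure D2:**
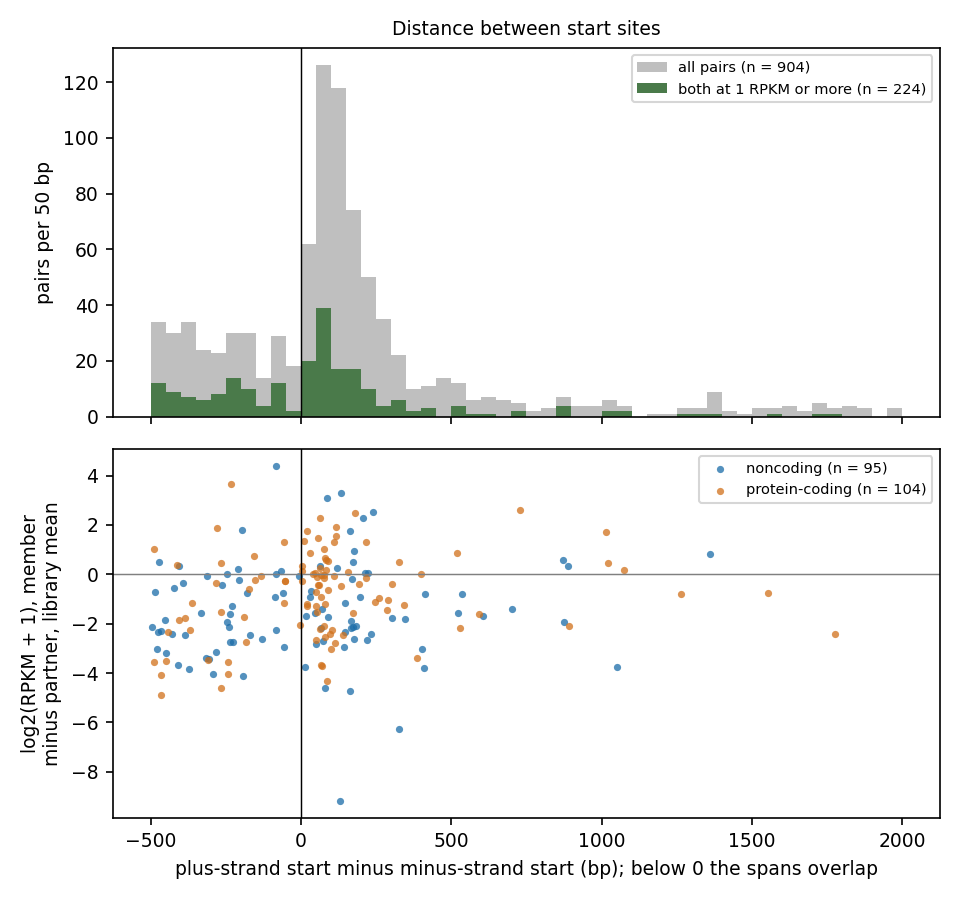
Top, number of pairs by the distance between both start sites in bins of 50 bp, for all 904 pairs (grey) and the 224 with both partners at 1 RPKM or more (green). Bottom, log2(RPKM + 1) of the member minus that of its partner, each from the mean of both libraries, against the same distance; the median over the 224 pairs is -1.13, and most points lie under 0.

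With both at 1 RPKM, the member stood at a median of 71.6% of its partner at 0 to 100 bp (60 pairs), 44.4% above that and up to 300 bp (47 pairs) and 37.8% above 300 bp (33 pairs). Where the spans overlapped it stood at 26.4% (84 pairs). The classes differed in this: protein-coding members stood at 72.5% without and 32.5% with span overlap, and noncoding members at 23.1% and 22.5%. These are medians of pairs that passed the limit on both sides, so they describe expressed pairs only.

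Between the libraries, no member differed by 2-fold. Of all 10868 features with a mean of 1 RPKM, 36 were higher by 2-fold or more (0.331%) and 49 were lower by as much (0.451%); among the 246 members, 0 were higher and 0 lower. At 1.5-fold, 3 members were higher and 2 lower, where 3.42% of all features were higher and 1.95% lower. The members' differences had a median of 0.05 with quartiles of -0.11 and 0.18, and ran from -0.70 to 0.66. 140 lay above 0 and 106 below, next to 58% above and 42% below with a median of 0.05 over all features. Noncoding members had a median of 0.01 (54 above, 49 below) and protein-coding members of 0.06 (70 above, 46 below). The 1077 expressed unnamed rows with no divergent partner had a median of 0.08, with 5 past 2-fold in each direction. The named partners had a median of 0.03 over 649, with 2 past 2-fold toward higher and 4 toward lower values, where 0.782% of all features passed in either direction.

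The largest difference toward lower values among the members was that of the targeted RNA itself. 1010001N08Rik, now named Gata6os in RefSeq, lies on the minus strand at chr18:11049085-11052565 (mm9), and its first 58 bp overlap those of Gata6, an endoderm transcription factor gene. It had 10.1 RPKM in the control and 5.83 in the depleted cells, from at least 538 and 369 reads, which is 57.8% of the control with an exact 95% interval of 50.5 to 66.1% that covers counting error only. Its difference of -0.70 was the lowest of the 246. Gata6 had 81.9 and 55.7 RPKM, a difference of -0.55, and was at 68.0% of the control (66.8 to 69.3%). Whether both changes have a common source was not tested here.

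The other members among the 8 lowest were 3 coding and 4 noncoding or unclassified transcripts, and their partners split. 2610021K21Rik, now Efcab11, had 8.89 RPKM in the control and 5.40 in the depleted cells (60.7%, interval 56.6 to 65.1%), whereas Tdp1, a DNA repair phosphodiesterase gene 1075 bp away, had 5.85 and 6.42. 1110012D08Rik, now Tmem198b, had 8.63 and 5.69 RPKM against 13.0 and 13.5 for Dnajc14, a co-chaperone gene. 2310028H24Rik, now Fam219a, had 3.12 and 1.87, and Dnaic1, a ciliary dynein gene, was at 0 and 0.00292. BC013529 had 20.1 and 14.4 against 6.21 and 6.10 for Ppil4, a spliceosomal isomerase gene. Gm15491 had 51.4 and 37.2 RPKM, while Npm3, a histone chaperone gene, had 40.7 and 46.3. In these pairs the member was lower and the partner within 0.2 of 0 on the log2 scale. Gm15491 also overlaps another expressed row on the other strand over 73.1% of its span. 1110012D08Rik, 2310028H24Rik and BC013529 do so over 18.2%, 2.39% and 4.39% of theirs.

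In the other pairs of the 8 lowest, both partners were lower, as at Gata6. Gm10785, a lncRNA, had 2.62 RPKM in the control and 1.54 in the depleted cells (58.6%, interval 50.4 to 68.0%), and Donson, a gene for a replication fork protein, had 16.7 and 12.9 (77.3%). 0610039K10Rik, noncoding, had 6.996 and 4.87 RPKM (69.6%, interval 62.1 to 77.8%), and Serinc3, a membrane protein gene whose first 282 bp it overlaps, had 68.7 and 51.8 (75.4%). 

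The 8 highest members also had partners on either side. Gm9929, a noncoding transcript 874 bp from Atf6, had 2.66 RPKM in the control and 4.79 in the depleted cells (180%, interval 161 to 202%), and Atf6, a transcription factor gene of the unfolded protein response, had 18.9 and 14.9. 4930473A02Rik had 4.60 and 7.44 RPKM, and the mitochondrial ribosomal gene Mrps26 6.19 and 6.67. 2610024G14Rik, now Noa1, a mitochondrial GTPase gene, had 1.77 and 3.16 (179%, interval 163 to 195%), and Polr2b, a core subunit gene of RNA polymerase II, 13.4 and 17.2. Gm17484 had 2.23 and 3.71, and the phospholipase gene Ddhd2 6.80 and 6.10. Gm16707 had 3.18 and 5.02, and the mitochondrial nuclease gene Exog 2.62 and 3.16. A930001C03Rik had 2.15 and 3.53, and Rhod, a small GTPase gene, 15.8 and 22.8. Gm17090 had 0.828 and 1.61, and Espnl 0.0142 and 0.0658. 2310022A10Rik had 6.37 and 9.33 (146%, interval 138 to 155%), while Pld3, a lysosomal nuclease gene with its start 77 bp away, had 38.3 and 36.0. Partners differed by 0.2 or more toward higher values at Polr2b, Exog and Rhod, and toward lower values at Atf6. Among the 8 highest members, Gm17484 overlaps Bag4 on the other strand, at 4.16 and 6.12 RPKM. Gm17090 overlaps Scly, at 1.69 and 2.38, over 99.8% of its span, and A930001C03Rik overlaps Syt12, at 1.68 and 2.20. Gm9929 and 4930473A02Rik also overlap other genes, given below.

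**Figure D3:**
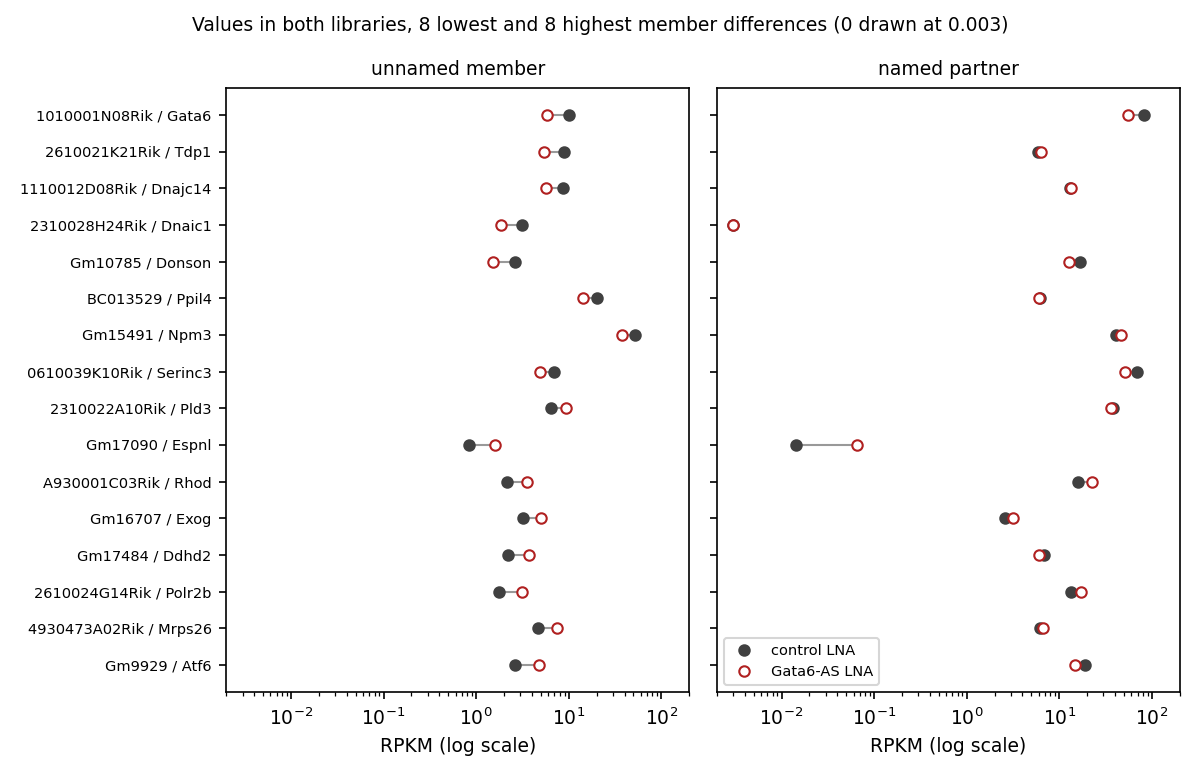
RPKM (log scale) in the control (filled) and depleted (open) library for the 8 members with the lowest and the 8 with the highest difference, left, and for their named partners, right. Members lie apart by this choice; among partners, Gata6, Donson and Serinc3 are lower with their member, Polr2b, Exog and Rhod higher, and Atf6 opposite to Gm9929.

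Pair by pair, both partners tended to differ in the same direction, though loosely. Over the 224 pairs, both differences lay above 0 in 90 and below 0 in 51, so 141 pairs (62.9%) were on the same side; the member was above and the partner below in 36, and the reverse held in 47. Pearson's r of both differences was 0.25 and Spearman's rank correlation 0.22, or 0.23 and 0.21 without the Gata6 pair; all points come from the same 2 libraries, so these are descriptions without a test. With the median difference of all features set to 0, 58.5% of pairs were on the same side. Among 856 pairs of named genes in the same geometry, 609 had both genes at 1 RPKM, with 56.0% on the same side and an r of 0.23. The gap between both differences had a median size of 0.19; it reached 1.5-fold in 14 pairs and 2-fold in 0.

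**Figure D4:**
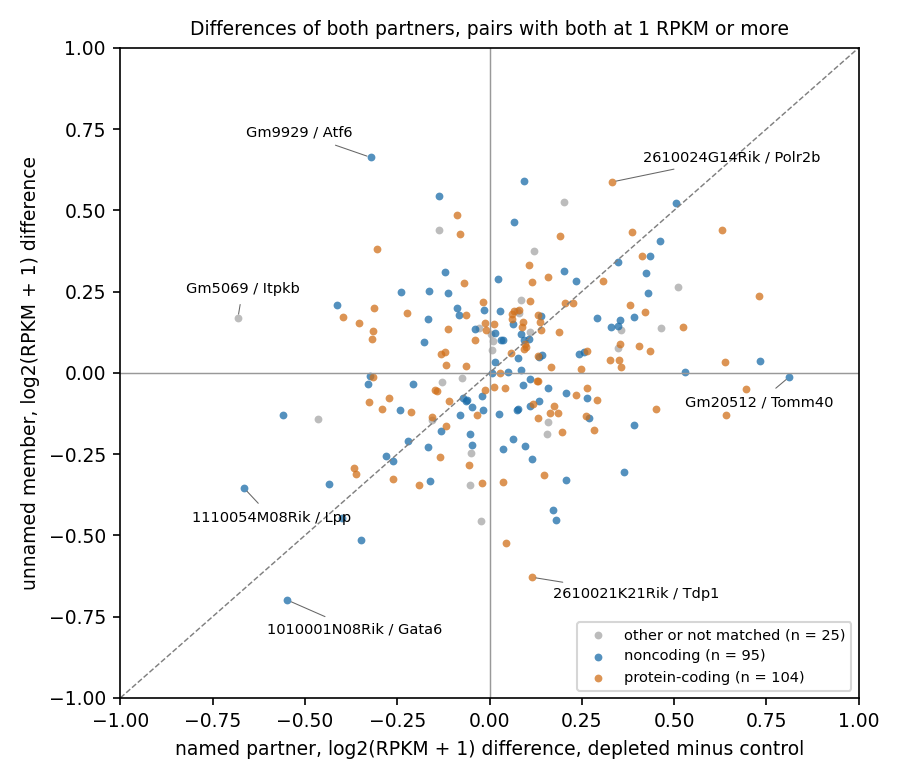
Difference of the member (vertical axis) against that of its named partner (horizontal axis), both as log2(RPKM + 1) in the depleted minus the control library, for the 224 pairs with both at 1 RPKM or more; the dashed line marks equal differences. The cloud leans weakly along the diagonal (r = 0.25), and the Gata6 pair lies at its lower left edge.

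The common direction was looser with distance in these pairs. Where the spans overlapped, 69.0% of 84 pairs were on the same side (r = 0.35). At 0 to 100 bp the share was 61.7% of 60 pairs (r = 0.40), above that and up to 300 bp 59.6% of 47 (r = 0.08), and above 300 bp 54.5% of 33 (r = -0.05). By class, 63.2% of 95 noncoding members (r = 0.31) and 58.7% of 104 protein-coding members (r = 0.19) were on the side of their partner. The differences between these shares were not tested.

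In 18 of the 224 pairs both partners differed by at least 0.3 on the log2 scale, a limit chosen after the values were seen. The share of all features past this limit was not counted. Both were lower in 6 of them, both higher in 9, and they were opposed in 3. The 6 lower pairs were those of Gata6, Donson, Serinc3, Lpp, Zfp148 and Emb. Lpp, a focal adhesion gene, had 10.8 RPKM in the control and 6.44 in the depleted cells, and 1110054M08Rik, now Lppos, 1.43 and 0.898. Zfp148, a zinc finger transcription factor gene, had 9.50 and 6.77, and 1700007L15Rik, 48 bp away, 2.44 and 1.71. Among the higher pairs, Cyr61, a matrix-associated signalling gene, had 170 and 230.3 RPKM, and the noncoding Gm17501 1.27 and 1.92. Glul, the glutamine synthetase gene, had 137 and 179, and 5830403L16Rik, now Teddm2, 4.53 and 6.46. Dhrs1, a short-chain dehydrogenase gene, had 7.71 and 12.5, and 2610027L16Rik, now Nop9, whose start lies 3 bp away, 10.79 and 14.98. The opposed pairs were Gm9929 with Atf6, 2700097O09Rik with Srp54b and Gm11491 with Trim37. Of these members, Gm11491 overlaps Fam33a on the other strand, at 16.1 and 12.5 RPKM, and Gm9929 overlaps Dusp12, given below. Among the 609 named pairs with both genes at 1 RPKM, 33 passed the same limit. Both genes were lower in 6 of these, both higher in 22 and opposed in 5.

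The pairs farthest apart were mostly those in which the member stayed near its control value. Polr2f, a subunit gene shared by the nuclear RNA polymerases, had 33.2 RPKM in the control and 54.4 in the depleted cells (164%, interval 155 to 173%), while 1700088E04Rik across the promoter shown above had 4.54 and 4.35 (95.7%, interval 86.2 to 106%). Tomm40, the import channel of the outer mitochondrial membrane, had 9.28 and 17.1, and the noncoding Gm20512 8.72 and 8.63. Gm20512 overlaps Pvrl2 on the other strand, at 57.1 and 58.4 RPKM, over 75.8% of its span. 1700088E04Rik overlaps Micall1, at 4.89 and 4.36, over 34.0% of its span. Reads of these members and of the overlapped genes cannot be told apart here, as set out below. Cct7, a chaperonin subunit gene, had 96.0 and 150, and 1700040I03Rik, now Pradc1, had 3.37 in the control and stood at 88.9% of it. Itpkb had 8.64 and 5.01 while Gm5069 had 82.7 and 93.0. The remaining members of this group, Gm9929 and 2610021K21Rik, differed more than their partners Atf6 and Tdp1.

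The 6 partners that passed 2-fold all had a member that did not reach a mean of 1 RPKM. Slc7a5, an amino acid transporter gene, had 133 RPKM in the control and 44.7 in the depleted cells, a difference of -1.55, and BC048644 on its other side had 0.00855 and 0.0108. Trib3, a stress-induced pseudokinase gene, had 26.0 and 9.28 (-1.39) with Gm14164 at 0 in both. Aldh18a1, a proline synthesis gene, had 112 and 53.1 (-1.06), and Gm16765 had 1.02 and 0.934, or 91.5% with an interval of 70.5 to 119%. Nog, which encodes the BMP antagonist noggin, had 66.7 and 32.6 (-1.01), and Gm2018 0.202 and 0.119. Toward higher values, Pdxp, a pyridoxal phosphatase gene, had 2.77 and 7.37 (1.15), and 1700027A07Rik 0.316 and 0.639, which is 202% with an interval of 108 to 397%. Among the pairs named here, only for Gm16765 and 1700027A07Rik did the depth narrow the member's ratio to within 4 times, and only the interval of 1700027A07Rik excluded 100%.

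The members' differences followed other genes that they overlap more closely than their divergent partners. Beyond the partner, 109 of the 246 expressed members overlap a further row on the opposite strand, and 97 of them one with a mean of at least 1 RPKM; the row with the longest overlap was taken. In 82 of these 97 (84.5%) both differences lay on the same side, with an r of 0.79 and a rank correlation of 0.80 across members, where the same members had 62.9% and an r of 0.15 with their divergent partner, whatever its level. For the 59 noncoding members among them r was 0.76 with the overlapped gene and 0.04 with the partner, and for the 25 protein-coding members 0.81 and 0.41. The difference between these correlations was not tested. The overlap took a median of 48.8% of the member's span. Gm9929 overlaps Dusp12, a phosphatase gene, at 4.13 and 7.87 RPKM; 4930473A02Rik overlaps Ptpra, a receptor phosphatase gene, at 13.8 and 22.4; and Gm15491 overlaps Mgea5, the O-GlcNAcase gene, at 50.6 and 32.5, each with a difference in its member's direction. Gm10785 overlaps Atp5o, an ATP synthase gene, at 89.9 and 90.4, and Cryzl1 at 18.6 and 9.82. The sources used here do not say if reads were assigned by strand, so reads of a member and of a gene it overlaps cannot be told apart.

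**Figure D5:**
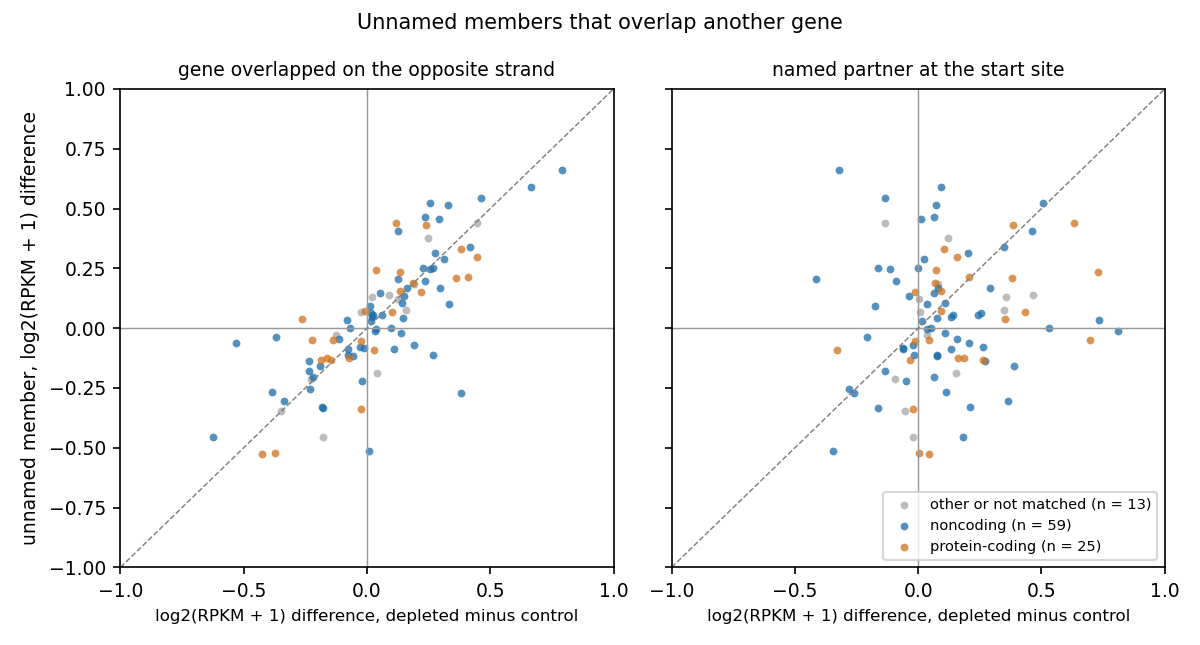
Difference of the 97 members that overlap a further expressed gene on the opposite strand (vertical axis) against that of the overlapped gene, left, and of the divergent partner, right, all as log2(RPKM + 1) in the depleted minus the control library; dashed lines mark equal differences. The points follow the diagonal on the left (r = 0.79) and scatter on the right (r = 0.15).

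Members that overlap neither their partner nor another gene on the opposite strand numbered 465, of which 87 reached 1 RPKM. Their 77 pairs with both partners expressed had 57.1% on the same side and an r of 0.25, and the member stood at a median of 62.0% of its partner's level. Among the 298 noncoding transcripts of this kind, 22 (7.38%) reached 1 RPKM, against 17.5% of all noncoding members. In their 20 pairs with both partners expressed, 12 were on the same side, and the member stood at a median of 16.0% of its partner's level.

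In the authors' deposited table of differences, 2099 rows (8.03% of the expression table) are listed, 1081 higher and 1018 lower. Of the members, 55 (6.08%) appear there, 21 higher and 34 lower, and 39 of these 55 have a mean below 1 RPKM. The authors' deposited table gives 1010001N08Rik a log2 difference of -0.89 at p = 0.0130 and Gata6 one of -0.47 at p = 0.0746; the sources used here do not say how p-values were made from 1 library each. Both partners of 11 pairs appear in the authors' deposited table, and all 11 have the same sign there. These are the pairs of Gata6, Lpp, Atxn7l1, Cyp4x1, Rev3l, Jak3, Neil1, Lrp8, Lrrc55, N4bp3 and Espnl, of which only the members at Gata6, Lpp and Espnl reach 1 RPKM.

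The genes that act on divergent transcripts were present in both libraries. Of 21 genes listed for the nuclear exosome and its cofactors, 20 were matched, all at 1 RPKM or more. Their differences had a median of 0.03, with 10 above and 10 below 0, next to 58% above 0 over all features. The range was from -0.26 (Papd5, a polymerase that tags RNAs for the exosome) to 0.61 (Exosc5, an exosome core subunit, at 14.2 and 22.3 RPKM). Among the 10 above 0 is Mpp6, at 6.51 and 8.83 RPKM (0.39), a membrane scaffold gene listed in error. The exosome cofactor also called MPP6 is encoded by Mphosph6, which is in the list too. The median and the split were not recomputed without Mpp6. Of 35 genes of the Integrator, the cap-binding complex and early termination, 31 were matched and expressed, with a median of 0.14. Of them, 24 lay above and 7 below 0, next to a median of 0.05 and 58% above 0 over all features. They ran from -0.39 (Ints6, an Integrator subunit, at 9.08 and 6.69 RPKM) to 0.78 (Ncbp2, the small cap-binding subunit, at 14.9 and 26.4). None of either list passed 2-fold.

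The libraries had the expression of XEN cells. All 12 endoderm markers were above 1 RPKM, and their summed level, to which matrix genes such as Sparc and Lamc1 contribute most, was 6057 RPKM in the control and 4552 in the depleted cells. By difference, 9 were below and 3 above 0, from -1.28 for Sox7, past 2-fold, to 0.30 for Hnf4a and 0.48 for Dab2. Embryonic stem cell markers summed to 4.68 and 5.13 RPKM, almost all from Nanog, with Sox2 and Esrrb at 0. Trophoblast markers summed to 0.984 and 1.63, and fibroblast markers to 3.83 and 4.63, almost all from Pdgfrb. The endoderm sum moves with the condition, and its part in the members' differences was not tested. The steps between RPKM values correspond to 1.036e+08 reads (control) and 1.229e+08 reads (depleted), so 1 RPKM over 1 kb is about 104 and 123 reads. The least number of reads behind the 246 expressed members had a median of 742 in the control and ran from 3 to 22155. By counting error alone, the interval of the ratio lay below 100% for 55 members and above it for 93. That interval says nothing of the spread between cultures. No such count was made over all features with a mean of 1 RPKM, of which 58% had a difference above 0. The counts of 55 and 93 therefore do not set the members apart from other features.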

How the data were processed

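Total RNA of PS10 XEN cells was sequenced in 2 libraries, grouped by their titles. Per the file headers, the authors deposited RPKM values for 26127 rows with coordinates, and a table of log2 values, their difference and a p-value for 2099 rows. TopHat and mm9 are named in the submitters' processing notes; the sources used here do not give the counter, the annotation or the use of strand. The log2 values of the authors' table are not log2 of the RPKM values and were printed only as the authors' own. No per-sample column was left unassigned.

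Differences are log2(RPKM + 1), depleted minus control, for rows with a mean of at least 1 RPKM, leaving out 1 small RNA row that passed it; 2-fold is a difference of 1. Intervals of a ratio to the control are exact (Clopper-Pearson, 95%). They come from the least whole reads that give both RPKM values at a length up to 30000 bp (relative tolerance 3e-07 plus 0.0002 reads). The actual reads can be a multiple of these, which would narrow an interval around the same ratio. Read totals come from 695 and 731 rows spanning under 3000 bp. PCR copies are not independent molecules, so the intervals of ratios and the floors of 3 reads cover counting error only. Overlaps are of annotated spans, not exons. Clone-like, LOC and small RNA names did not count as named genes.

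The members and gene lists were chosen with earlier results of these data known. Named are the Gata6 pair, the 8 lowest, 8 highest and 8 most abundant members, the 6 pairs farthest apart, partners past 2-fold, pairs at the limits of the rule and the extremes of each list; some genes within these criteria were left out of the text. Others, and the comparison with further overlapped genes, were chosen after their values were seen. Partners were not grouped by role, since the RefSeq table (GRCm38.p6, used for names and promoter windows) holds no descriptions. Alternatives changed the pseudocount, scaling, filter, pair geometry and size rule. Scripts were tested on simulated data and used Python 3.11.15, pandas 2.3.3 and scipy 1.17.1.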

Additional observations from a re-analysis of the deposited data

How the results depend on the processing

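Across 12 settings, 71 of 87 values kept their direction and stayed within 1.5 times (counts) or within the main value's 95% interval (others), which for the small medians is wide: the members' median was 0.0297 with summed-RPKM scaling and 0.0265 at a mean of at least 5 RPKM. For medians this interval comes from the ranked values, and for the share on the same side it is an exact one over pairs. Both treat members or pairs as independent, although all come from the same 2 libraries. For the differences of the Gata6 pair it covers counting error only. The partners' median was -0.0145 with the median of all features set to 0, where the members' was 0.00118. Scaling each library to 1000000 summed RPKM shifted the log2 ratio of every row, before the pseudocount, by -0.03. This scaling moved the partners' median to 0.0158, partners past 2-fold from 6 to 8 and Gata6 to -0.58. Centring moved Gata6 to -0.60. Partners past 2-fold numbered 10 with a pseudocount of 0.1 RPKM and 4 with starts within 500 bp. Without a filter the members' median was 0, the partners' 0.00486 and 46.3% of pairs were on the same side. That share counts every pair with a difference of 0, such as those of the 189 members at 0 in both libraries, as not on the same side. The median log2 ratio of levels was -1.67 without a filter and -0.43 at a mean of at least 5 RPKM. In pairs free of overlaps with an opposite row, the medians were 0.10 and 0.00287, 3 partners passed 2-fold and the log2 ratio of levels was -0.65. With the 1.5-fold rule, 3 members were higher and 2 lower instead of 0 and 0. The cause of these shifts was not tested beyond what each setting does. No paired analysis was possible because each group has 1 library. Leaving out the Gata6 pair, an alternative added after seeing the data, changed no direction. Depth limits the members below 1 RPKM, whose ratios rest on few reads.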
